A study of Mus musculus with 6 samples.

Results

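The 88 genes described here carry the names of the proteins of the cytoplasmic ribosome. They are the rows of the deposited table named Rps (small, 40S subunit) or Rpl (large, 60S subunit) with a number or P stalk letter, without names of pseudogenes marked -ps, out of 55401 listed genes. There were 35 Rps and 53 Rpl genes, and 81 of the 88 had enough counts to be tested, among 18438 tested genes in all. By annotation 82 were protein-coding. Rps4l, Rps3a3, Rps3a2, Rps12l1, Rpl6l and Rpl32l carry the name of a ribosomal protein gene but are annotated as processed pseudogenes, Rps4l as a transcribed one. The naming rule does not take Rpsa, Fau, Rack1 and Rpl36al, which also encode ribosomal proteins or a ribosome-bound protein, and these are given separately.

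Kidney endothelial cells (ECs) were sorted as CD31+ CD45- cells from 3 mice labelled CTRL (Cre -/-; Rbpjf/f) and 3 labelled RbpjΔEC (Cre +/-; Rbpjf/f, RbpjDEC in the labels), 1 RNA-seq library for each mouse. Both groups carry the floxed Rbpj alleles and both received tamoxifen in 5 injections of 1.5 mg at 8 weeks of age, so the groups differ in the Cre-ERT2 transgene under the endothelial Cdh5 promoter. Organs were taken 12 weeks after induction, and the labels give an age of 21 weeks. Rbpj encodes the DNA-binding factor of canonical Notch signaling. Its level over the whole gene was 28.1, 29.7 and 29.8 CPM (counts relative to library sizes adjusted with edgeR's TMM factors) in CTRL 1 to 3, against 28.9, 26.1 and 29.6 CPM in RbpjΔEC 1 to 3. Gene-level counts do not separate the floxed part, so this does not check the labels.

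The ribosome is built from ribosomal RNA and a fixed set of proteins, most of which are present once in each particle, and cells make them in matched amounts. Much of this matching happens in translation: vertebrate ribosomal protein mRNAs typically begin with a C followed by a run of pyrimidines, the 5′ terminal oligopyrimidine (TOP) tract, through which mTOR signaling sets how strongly they are translated. Levels of these mRNAs, which RNA-seq measures, therefore do not give the rate of ribosome production. Many of the genes hold small nucleolar RNAs (snoRNAs) in their introns, and nearly all have left processed pseudogene copies in the mammalian genome.

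The starts of 4 genes at the ends of the comparison, of the study's qPCR reference gene Rps9 and of the P stalk gene Rplp2 are shown because the TOP tract is the sequence feature the family is known for. Each line gives 30 bases from RefSeq promoters (GRCm38.p6), 10 before the annotated gene start and 20 from it on, on the gene's strand. Capitals mark a run of at least 5 C or T bases that begins with C no more than 5 bases from the start.
Rpl13a, chr7:45128726-45128755, minus strand: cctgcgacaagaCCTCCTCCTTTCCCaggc
Rpl22l1, chr3:28805498-28805527, plus strand: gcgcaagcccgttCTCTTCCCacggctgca
Rpl27, chr11:101442235-101442264, plus strand: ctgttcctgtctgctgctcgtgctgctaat
Rpl36a, chrX:134585644-134585673, plus strand: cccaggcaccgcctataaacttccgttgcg
Rps9, chr7:3704031-3704060, plus strand: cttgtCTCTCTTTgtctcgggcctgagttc
Rplp2, chr7:141447641-141447670, plus strand: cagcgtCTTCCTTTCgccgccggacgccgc

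Of the 88 genes, 63 matched a RefSeq promoter by symbol, and 30 of these (47.6%) held such a run at 1 or more of their listed starts, against 21.2% of all 27025 genes with a promoter. The share was 45% of 40 Rpl and 52.2% of 23 Rps genes. It was 24.6% of 69 mitochondrial ribosomal protein genes, whose mRNAs do not belong to the TOP class, and 46.2% of 13 translation factor genes of the TOP class. A match describes these letters only, and depends on where the annotation places the start.

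No cytoplasmic ribosomal protein gene passed the test between RbpjΔEC and CTRL ECs. At an adjusted p under 0.05 (edgeR's quasi-likelihood test, Benjamini-Hochberg over all 18438 tested genes), 0 of 81 were higher and 0 were lower, where 1.13% of all tested genes were called, 0.575% as higher and 0.559% as lower. At an unadjusted p under 0.05, the members that were higher numbered 3 and those that were lower 13, beside 8.88% and 8.62% of all tested genes. DESeq2 also called 0 in either direction, and 3 and 16 unadjusted. The fitted log2 fold change was below 0 in 64 of 81 members (79%) and in 48.9% of all tested genes. Its median was -0.15 over the members and 0.01 over all tested genes. These medians lay closer together in the fits that keep genes of few counts, at -0.12 and -0.09 in edgeR with no low-count filter and at -0.13 and -0.10 in DESeq2.

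The members' summed level in CPM was 5076, 4690 and 5785 in CTRL 1 to 3. In RbpjΔEC 1 to 3 it was 4566, 5166 and 4300. The groups overlapped, since RbpjΔEC 2 lay above CTRL 1 and CTRL 2. The means were 5183 ± 555 CPM in CTRL and 4677 ± 443 in RbpjΔEC (SD, n = 3 each), a log2 ratio of -0.15. The difference of the means was smaller than the SD in CTRL and larger than that in RbpjΔEC. In these bulk samples, fewer cells of a type and less RNA per cell cannot be told apart. Small-subunit genes summed to 1913 ± 226 CPM in CTRL and 1713 ± 181 in RbpjΔEC, and large-subunit genes to 3270 ± 329 and 2964 ± 262. Both subunits followed the same order of libraries.

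**Figure D1:**
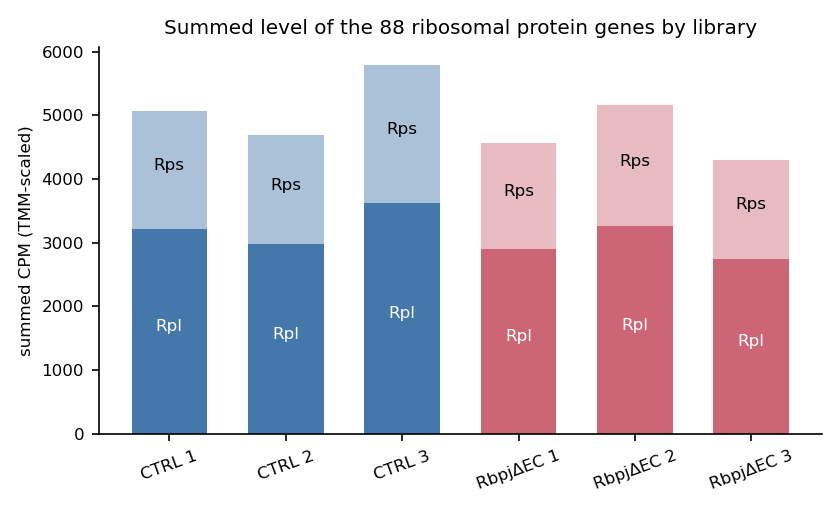
Summed TMM-scaled CPM of the 88 ribosomal protein genes in each library, with large-subunit (Rpl) genes in the darker part of each bar and small-subunit (Rps) genes in the lighter part. CTRL 3 was highest at 5785 CPM and RbpjΔEC 3 lowest at 4300, and RbpjΔEC 2 at 5166 lay among the CTRL libraries.

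The members moved together from library to library, also within a genotype. CTRL 3 was the highest of the 6 libraries for 64 of 81 members and RbpjΔEC 3 the lowest for 56, where these libraries were highest and lowest for 18.9% and 16.9% of all tested genes. The members' median deviation from their own mean over the 6 libraries, on the log2 CPM scale, was 0.04, -0.07 and 0.23 in CTRL 1 to 3, against -0.08, 0.08 and -0.18 in RbpjΔEC 1 to 3. The median Pearson correlation between 2 members, over the deviations of the 6 libraries from their group means, was 0.813, and 98.6% of the pairs had a correlation above 0. It was 0.836 among 40S genes and 0.788 among 60S genes. The same measure was 0.589 among 19 translation factors of the TOP class and 0.151 among 81 mitochondrial ribosomal proteins, where names marked -ps were kept. It was 0.158 among 78 ribosomal protein pseudogenes and 0.0104 among 40 ribosome biogenesis genes. These values describe 6 libraries that all pairs share, and are given without a test.

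**Figure D2:**
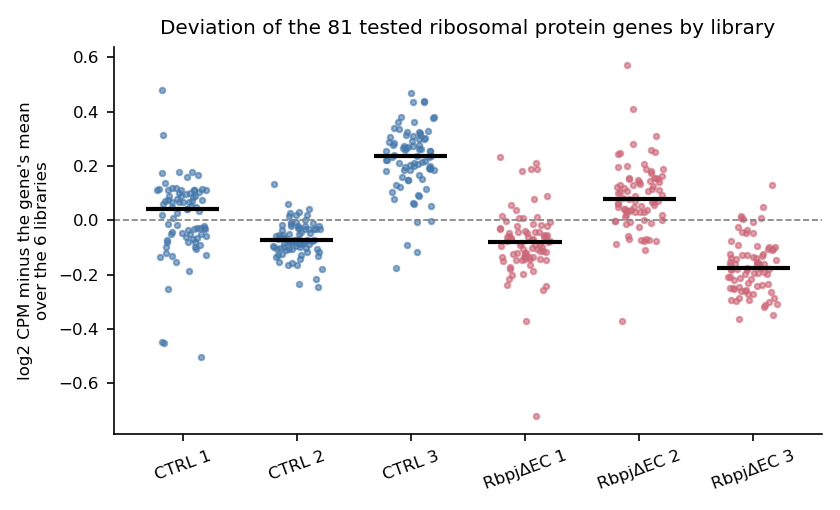
Each point is 1 of the 81 tested ribosomal protein genes, plotted as its log2 CPM in a library minus its mean over the 6 libraries, and the bars are medians. Most points lie above 0 in CTRL 3 (median 0.23) and below 0 in RbpjΔEC 3 (median -0.18), and the medians of the other 4 libraries lie between -0.08 and 0.08.

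The median fold change rested in part on those 2 libraries. Without CTRL 3 it was -0.05, with 49 of 81 members below 0 and 1 lower at an unadjusted p under 0.05. Without RbpjΔEC 3 it was -0.09, with 55 members below 0 and 2 lower at such a p. Leaving out either library numbered 2 moved it the other way. Without CTRL 2 it was -0.20, with 68 members below 0, and without RbpjΔEC 2 it was -0.21, with 73 below 0, and 30 members were lower at an unadjusted p under 0.05 in each of these fits, in place of 13. Over the 6 such fits together, 26 of the 81 members turned direction at least once, another 45 moved by over 1.5 times at least once, and 10 stayed within 1.5 times, among them Rpl13a, Rpl22l1, Rpl27, Rpl8, Rpl29, Rpl4 and Rpl7l1. The summed level gave a log2 ratio of -0.06 without CTRL 3 and -0.09 without RbpjΔEC 3, against -0.22 without CTRL 2 and -0.23 without RbpjΔEC 2.

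Other RNAs also differed between the libraries. The summed level of 4 nuclear long noncoding RNAs (Malat1, Neat1, Meg3 and Kcnq1ot1) was 18241, 30124 and 20040 CPM in CTRL 1 to 3, against 36900, 28383 and 38380 in RbpjΔEC 1 to 3. Of these 4, 2 had a log2 fold change above 0 and 2 below, with a median of 0.28. In edgeR 0 passed the test, and 1 was higher without CTRL 2. The 3 libraries with the lowest noncoding sums, CTRL 1, CTRL 3 and RbpjΔEC 2, had the 3 highest sums of ribosomal protein genes. The mitochondrially encoded genes, of respiratory chain and ATP synthase subunits and of mitochondrial ribosomal and transfer RNA, summed to 72908, 65363 and 72438 CPM in CTRL 1 to 3, against 57631, 53351 and 65680 in RbpjΔEC 1 to 3, or 83.8% of CTRL in the means. The groups overlapped through CTRL 2 and RbpjΔEC 3. Of 14 tested, 12 had a log2 fold change below 0, with a median of -0.27. In edgeR's quasi-likelihood test 0 passed and 4 were lower unadjusted, but 5 passed as lower without RbpjΔEC 3 and 4 with no low-count filter. With these genes left out of the library total, the log2 ratio of the members' sum was -0.12. The part of either group of RNAs in the fitted fold changes was not tested.

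Total counts on genes were 39649171 to 47726850 in the 6 libraries, of which the members took 0.4346% to 0.5652%. CTRL 1 had counts on 33764 genes and the other libraries on 25629 to 26785. All 14 endothelial markers were detected, with a sum of 29550 ± 1498 CPM in CTRL and 25200 ± 171 in RbpjΔEC. Of these, edgeR's quasi-likelihood test called 0 (1 higher and 6 lower unadjusted) and DESeq2 called 5 lower. In edgeR 1 was lower without CTRL 1 or CTRL 2 and 2 without RbpjΔEC 3. With no low-count filter 6 were lower and 1 higher. The 10 mural markers summed to 87.7 to 114 CPM in CTRL and 36.2 to 58.4 in RbpjΔEC. Of these, 3 were lower past the threshold in edgeR and 7 in DESeq2, and the edgeR count ran from 0 (without CTRL 1 or RbpjΔEC 1) to 8 (without RbpjΔEC 3). The 17 leukocyte markers summed to 16.2 to 20.7 and 24.5 to 30.2 CPM (1 higher in edgeR, 1 higher and 1 lower in DESeq2), with Cd3e at 0 in all libraries. Cd68, named here after its values were seen, was the gene called higher in edgeR, at 9.97 ± 2.71 CPM in CTRL and 24.0 ± 1.70 in RbpjΔEC (SD, n = 3 each). No leukocyte marker was called higher without CTRL 3, RbpjΔEC 1 or RbpjΔEC 2. Of the 6 leukocyte markers tested, 4 had a log2 fold change below 0 and the median was -0.73, with Ptprc at 2.59 ± 1.38 and 0.957 ± 0.564 CPM. The 7 stroma markers summed to 4.63 to 7.08 CPM in CTRL and 1.54 to 2.92 in RbpjΔEC (1 lower in edgeR, 2 in DESeq2), with Dpt at 0. The edgeR count was 0 without CTRL 1, CTRL 3, RbpjΔEC 1 or RbpjΔEC 2, and 2 without CTRL 2 or RbpjΔEC 3. The 12 tubule markers summed to 542 to 660 and 306 to 646 CPM and held 0 calls in either tool. Their sum had a log2 ratio of -0.50, while 7 of the 12 had a log2 fold change above 0 and their median was 0.98, or 0.03 without RbpjΔEC 3. The 6 podocyte markers (3230 to 3602 and 2650 to 2934 CPM) and the 6 erythroid markers (9.72 to 11.7 and 1.24 to 7.19) held 0 calls in edgeR, where DESeq2 called 1 podocyte marker higher, 1 podocyte marker lower and 1 erythroid marker lower. The part of these cells in the members' levels was not tested.

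Rpl13a, Rpl22l1 and Rpl27 were higher in every RbpjΔEC library than in any CTRL library. In all, 3 members lay without overlap on the higher side and 7 on the lower side, beside 11.4% and 11.6% of all tested genes.

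Rpl13a, a large-subunit gene that hosts 4 snoRNAs (chr7:45125558-45128761, minus strand), had the largest positive log2 fold change and the smallest adjusted p of the members. Its level was 17.8, 22.9 and 22.8 CPM in CTRL and 27.8, 30.2 and 26.7 in RbpjΔEC. Each RbpjΔEC library lay above each CTRL library, and CTRL 1 was the lowest. The log2 fold change was 0.41 ± 0.11 (SE, 95% interval 0.17 to 0.65), with an adjusted p of 0.0939 in edgeR's quasi-likelihood test. Over the alternatives the fold change ran from 0.30 to 0.47, lowest without CTRL 1, and the adjusted p from 0.00543 (edgeR with no low-count filter) to 0.292. Other genes on the same strand, Gm45713, Mir5121 and Snord33, overlap 35.4% of its exon bases, and how reads shared by genes were counted is not given in the sources used here.

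Rpl22l1 (chr3:28805436-28807424, plus strand) is the paralog of Rpl22, which encodes an RNA-binding protein of the large subunit. Rpl22l1 was at 15.2, 15.6 and 18.1 CPM in CTRL and 20.5, 21.96 and 18.2 in RbpjΔEC, where CTRL 3 and RbpjΔEC 3 nearly met. Its log2 fold change was 0.31 ± 0.11 (SE), with an adjusted p of 0.172 in edgeR's quasi-likelihood test. Rpl22 itself was at 117, 109 and 126 CPM in CTRL and 100.02, 123 and 93.7 in RbpjΔEC. These values overlapped, and its log2 fold change was -0.15 ± 0.10 (SE).

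Rpl27 (chr11:101442298-101445529, plus strand), a large-subunit gene altered in some patients with Diamond-Blackfan anemia, was at 11.4, 10.2 and 11.1 CPM in CTRL and 14.1, 13.8 and 12.0 in RbpjΔEC. Its log2 fold change was 0.29 ± 0.12 (SE), with an adjusted p of 0.230 in edgeR's quasi-likelihood test. All 3 were among the 8 lowest of the 48 tested large-subunit genes in level per length, at 10.02, 8.18 and 7.10 CPM per kb of exon in CTRL. Rpl41, the gene of the shortest ribosomal protein, and Rps18, of the head of the small subunit, came next among members of at least 5 CPM, with log2 fold changes of 0.09 ± 0.10 and 0.08 ± 0.09 (SE). Both had overlapping groups.

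**Figure D3:**
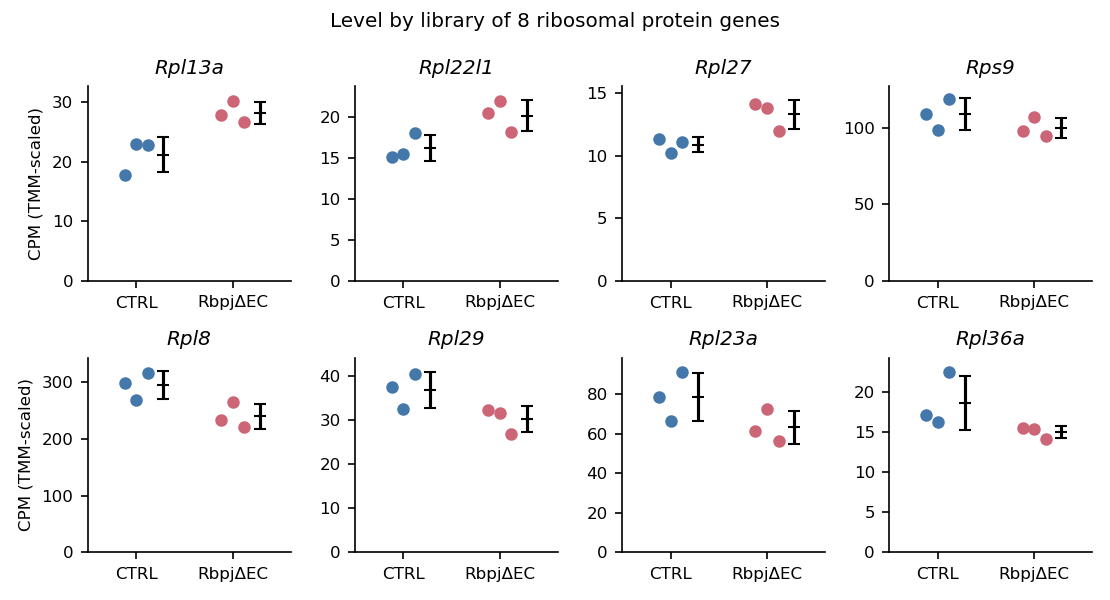
TMM-scaled CPM of 8 ribosomal protein genes in 3 CTRL and 3 RbpjΔEC libraries, 1 point for each library, with the mean and SD of each group beside the points. Rpl13a, Rpl22l1 and Rpl27 were higher in RbpjΔEC without overlap, Rpl8, Rpl29 and Rpl36a lower without overlap, and Rpl23a and Rps9 overlapped.

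Rpl8 had the smallest adjusted p among the members that were lower. It encodes a protein next to the peptidyl transferase center and lies at chr15:76904078-76906314, plus strand. Its level was 299, 269 and 316 CPM in CTRL and 233, 265 and 222 in RbpjΔEC. CTRL 2 and RbpjΔEC 2 differed by little, and the groups did not overlap. The log2 fold change was -0.30 ± 0.09 (SE, 95% interval -0.49 to -0.11), with an adjusted p of 0.108 in edgeR's quasi-likelihood test. Without CTRL 2 it was -0.37 with an adjusted p of 0.0464 in the same test, the 1 member call that leaving out a library gave, and over all alternatives the adjusted p ran from 0.00755 to 0.337.

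The other most negative log2 fold changes among members of at least 5 CPM were those of Rps4l, Rpl23a, Rpl36a and Rpl29. Rpl29, which is dispensable for life in mice, was at 37.6, 32.4 and 40.6 CPM in CTRL and 32.3, 31.5 and 26.8 in RbpjΔEC, with a log2 fold change of -0.29 ± 0.11 (SE). Rpl36a was at 17.2, 16.3 and 22.5 CPM in CTRL and 15.5, 15.4 and 14.2 in RbpjΔEC, with -0.31 ± 0.13. Neither pair of groups overlapped, Rpl29 by a narrow margin between CTRL 2 and RbpjΔEC 1, but CTRL 3 stood above the rest in both genes. Without CTRL 3 the log2 fold change was -0.16 for Rpl36a, -0.20 for Rpl23a and -0.21 for Rps4l, and without RbpjΔEC 1 it was -0.56 for Rps4l. Rpl23a, whose protein sits at the exit of the peptide tunnel, was at 78.8, 66.7 and 91.1 CPM in CTRL and 61.3, 72.6 and 56.2 in RbpjΔEC, with -0.32 ± 0.12 and overlapping groups. Genes on either strand, mainly Tlcd1 on the other one, overlap 62.3% of its exon bases. Rps4l, annotated as a transcribed pseudogene, was at 16.9, 16.2 and 21.6 CPM in CTRL and 18.2, 12.3 and 12.4 in RbpjΔEC, with -0.35 ± 0.17. It overlapped through RbpjΔEC 1. The adjusted p-values of these 4 genes were 0.187 (Rpl29), 0.238 (Rpl36a), 0.233 (Rpl23a) and 0.320 (Rps4l) in edgeR's quasi-likelihood test. Rpl5, Rpl7l1, Rps3a1 and Rpl21 were also lower without overlap, the latter 2 named here after their values were seen.

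**Figure D4:**
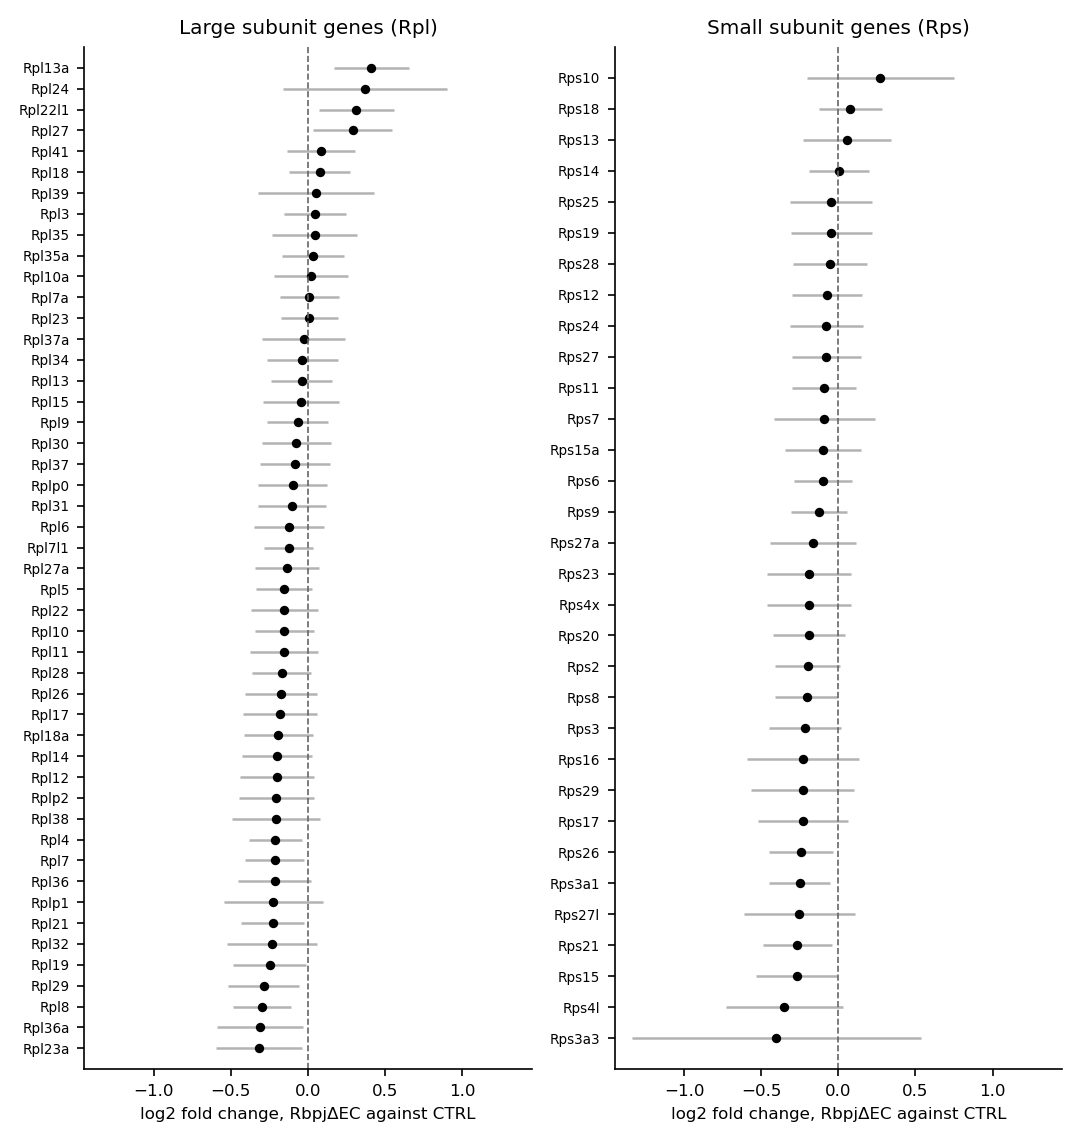
Fitted log2 fold change of RbpjΔEC against CTRL for the 48 tested large-subunit genes and the 33 tested small-subunit genes apart from 1 that is not shown, with 95% intervals, sorted within each panel. Rpl13a, Rpl22l1 and Rpl27 are the genes whose interval lies above 0, and the intervals of 13 genes lie below 0. The points below 0 outnumber those above it in both panels.

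Both subunits had a median log2 fold change below 0. Among 33 tested 40S genes the median log2 fold change was -0.19, with 29 below 0 (48.9% of all tested genes). Of these 33 genes, 5 lower and 0 higher ones had an unadjusted p under 0.05, beside 8.62% and 8.88% of all tested genes. Among 48 tested 60S genes it was -0.13, with 35 below 0, and 8 lower and 3 higher genes had such a p. Without CTRL 3 the medians were -0.05 (40S) and -0.04 (60S), with 0 and 1 genes lower at such a p, and without RbpjΔEC 2 they were -0.26 and -0.19, with 13 and 17. Without CTRL 2 they were -0.27 and -0.19, with 10 and 20, and without RbpjΔEC 3 they were -0.10 and -0.08, with 1 gene lower in each. The difference between the subunits was not tested.

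The P stalk recruits translation factors to the large subunit. Its genes Rplp0, Rplp1 and Rplp2 summed to 401, 335 and 433 CPM in CTRL and 334, 393 and 304 in RbpjΔEC, with overlap. Their log2 fold changes were -0.10 ± 0.10, -0.22 ± 0.14 and -0.20 ± 0.11 (SE). With a library left out they ran from -0.21 to -0.03 (Rplp0) and -0.37 to -0.14 (Rplp1), both lowest without RbpjΔEC 2 and highest without CTRL 3, and from -0.31 without CTRL 2 to -0.12 without RbpjΔEC 3 (Rplp2). Rpl5 and Rpl11 form a particle with 5S RNA that also binds Mdm2 when ribosome assembly is disturbed. Rpl5 was at 48.2, 45.9 and 54.8 CPM in CTRL and 45.1, 45.2 and 43.7 in RbpjΔEC, just without overlap. Rpl11 was at 29.5, 25.9 and 32.7 CPM in CTRL and 26.0, 28.1 and 24.96 in RbpjΔEC, with overlap. The log2 fold changes were -0.15 ± 0.08 and -0.16 ± 0.10 (SE), and neither gene passed the test. Without CTRL 2 they were -0.21 for Rpl5 and -0.24 for Rpl11, and without CTRL 3 they were -0.08 and -0.07.

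Rps9 served the study as the reference gene of its whole-kidney qPCR. In these ECs it was at 109, 98.8 and 119 CPM in CTRL and 98.0, 107 and 94.6 in RbpjΔEC. The groups overlapped, and the log2 fold change of -0.13 ± 0.08 (SE, 95% interval -0.31 to 0.05) was near the median of all members. It ran from -0.20 without CTRL 2 to -0.06 without CTRL 3. Rps6, the target of the S6 kinases below mTOR, was at 61.5, 56.5 and 65.7 CPM in CTRL and 55.1, 62.5 and 53.9 in RbpjΔEC, with -0.10 ± 0.09. Rps19, the gene most often altered in Diamond-Blackfan anemia, gave -0.05 ± 0.12, a direction that turned without CTRL 3 or without RbpjΔEC 3. Rps27a, which encodes ubiquitin fused to a 40S protein, gave -0.17 ± 0.13. None of these 4 genes passed the test.

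Of the paralog pairs, the tissue-restricted copies were at or near background. Rpl10l and Rpl39l, known from testis, had few counts. Rpl10l had 5 counts in CTRL 1 and 0 in the other libraries, and Rpl39l had 3 counts in CTRL 1, 2 in RbpjΔEC 3 and 0 elsewhere. Rpl3l, known from striated muscle, had 1 to 16 counts in each library. The remaining members with too few counts to test, the pseudogenes Rps12l1, Rpl32l, Rpl6l and Rps3a2, had 1 to 10. The widely used partners Rpl10, Rpl39 and Rpl3 were far above this. Rpl10 was at 61.1 ± 5.52 CPM in CTRL and 54.9 ± 4.25 in RbpjΔEC (SD, n = 3 each), Rpl39 at 5.18 ± 0.272 and 5.36 ± 0.665, and Rpl3, whose protein lies near the catalytic center, at 155 ± 14.7 and 160 ± 17.1. The log2 fold changes were -0.15 for Rpl10, 0.05 for Rpl39 and 0.05 for Rpl3, and those of Rpl39 and Rpl3 turned below 0 when single libraries were left out.

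The other pairs had both copies expressed. Rps4x, on the X chromosome, was at 68.6 ± 9.47 CPM in CTRL and 60.2 ± 8.95 in RbpjΔEC, with a log2 fold change of -0.19 ± 0.12 (SE). Rps27 gave -0.08 ± 0.10, a direction that turned without CTRL 3, and Rps27l, a p53 target, gave -0.25 ± 0.16. Rpl7 was at 164 ± 17.0 CPM in CTRL and 141 ± 11.2 in RbpjΔEC, with -0.22 ± 0.09. Rpl7l1, an assembly factor related to Rpl7, was at 48.5 ± 2.07 and 44.5 ± 0.731 CPM with -0.13 ± 0.07. None of these 5 genes passed the test.

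Among related genes outside the naming rule, Rpsa was lowest against CTRL. It encodes a 40S protein also known as the laminin receptor, and was at 134, 122 and 149 CPM in CTRL and 108, 117 and 101 in RbpjΔEC, without overlap. The log2 fold change was -0.31 ± 0.09 (SE), with an adjusted p of 0.101 in edgeR's quasi-likelihood test. With a library left out, this p ran from 0.0365 (without CTRL 2) to 0.317 in the same test. Rpsa also passed as lower with no low-count filter. Rack1, the scaffold protein bound to the small subunit, gave -0.19 ± 0.10. Fau, which encodes a ribosomal protein fused to a ubiquitin-like protein, gave -0.15 ± 0.09. With a library left out, Rack1 ran from -0.29 to -0.11 and Fau from -0.24 to -0.09, lowest without CTRL 2 and highest without CTRL 3. Rpl36al, the autosomal copy of Rpl36a, was at 3.06 ± 0.268 and 3.15 ± 0.285 CPM (SD, n = 3 each) with 0.04 ± 0.21. All of the last 3 had overlapping groups.

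Although the proteins are present in near equal numbers in a ribosome, the genes' levels spanned a wide range. In CTRL the highest levels per length were those of Rplp1 (261 ± 37.7 CPM per kb of exon, SD, n = 3), Rpl8 (217 ± 17.6), Rpl4, which lines the peptide tunnel (155 ± 12.1), Rpl36 (137 ± 21.2) and Rps15 of the small-subunit head (118 ± 14.8). Neighbours in this order differed by about their SD, apart from Rpl8 and Rpl4. In RbpjΔEC the same 5 genes were at 223 ± 38.1, 176 ± 16.4, 134 ± 9.10, 118 ± 7.28 and 97.9 ± 14.1 CPM per kb, in the same order. The lowest tested genes in CTRL were Rpl27 (7.10 ± 0.389), Rpl39 (3.61 ± 0.190), Rpl24 (3.37 ± 0.752), Rps10 (1.88 ± 0.359) and the pseudogene Rps3a3 (0.913 ± 0.191). Rpl39 and Rpl24 did not differ beyond their spread. Rpl24 and Rps10 had log2 fold changes of 0.37 ± 0.24 and 0.27 ± 0.22 (SE), Rps3a3 of -0.40 ± 0.43, and the groups overlapped in each. With a library left out, these ran from 0.15 (without RbpjΔEC 2) to 0.54 (without CTRL 2) for Rpl24, from 0.13 (without CTRL 1) to 0.43 (without RbpjΔEC 3) for Rps10 and from -0.68 (without RbpjΔEC 2) to -0.17 (without RbpjΔEC 1) for Rps3a3. Exon lengths sum over all annotated transcripts. Per kb of the principal coding transcript, Rplp2 reached 354 CPM in CTRL and Rpl8 346, against 261 for Rplp1.

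Copies limit how well such levels can be read. Of the 38-base windows (the read length) in the principal transcript of a protein-coding member, a median of 61.3% also occurred in another gene, and 56 of 82 members had more than 50% of their windows in others. The median for 78 mitochondrial ribosomal proteins was 5.42%. Matches on either strand and in genes that overlap the member were counted, and the reads were paired, so these are not shares of ambiguous reads. A median of 11 annotated pseudogenes shared windows with a member. Rpl7a, named here for this share after it was seen, shared windows with 144 pseudogenes. Of the genes at the low end of the level order, 95.2% of the windows of Rps10 and 82.0% of those of Rpl24 occurred elsewhere, and other genes on the same strand overlapped 20.6% and 47.0% of their exon bases. Rpl8 shared 9.21% of its windows and Rps9 38.5%. How reads with several positions were counted is not given in the sources used here, so levels of members with copies are uncertain, and direct comparisons between genotypes rest on the same counting in all libraries.

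The members were also split by sequence features and by level. The median log2 fold change was -0.10 over 29 tested members with a pyrimidine run at the start and -0.10 over 30 with a promoter but no run. Tested members with no promoter listed are in neither group, among them Rpl8, Rpl23a, Rpl29 and Rps4l of the negative end, and Rpl3, above 0. Both medians lay above the -0.15 of all tested members. By snoRNA, the median was -0.15 over 29 members that host one and -0.13 over 52 that do not. Members with more than 50% of their windows in other genes had a median of -0.11 (56 genes) and those with fewer had -0.15 (23 genes). It was -0.10 over 37 members whose exons overlap another gene, -0.08 over the 11 of these with at least 20% of their exon bases overlapped, and -0.18 over 44 with no overlap. By level, the median was -0.19 over the 40 members above the members' median CPM in CTRL, 35 of them below 0, and -0.08 over the other 41, 29 of them below 0. Spearman's rho between CTRL level and log2 fold change was -0.409 over 79 members, where the CTRL libraries enter both measures. No split was tested.

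Genes that work with the ribosomal proteins were compared in the same fit. Of 19 translation factors of the TOP class, 0 passed edgeR's quasi-likelihood test, 16 had a log2 fold change below 0 and the median was -0.14. Without adjustment 4 were lower and 0 higher, and DESeq2 called 0, with 5 lower and 0 higher unadjusted. In edgeR the unadjusted lower count ran from 0 (without CTRL 3 or RbpjΔEC 1) to 8 (without CTRL 2 or RbpjΔEC 2). Eef1a1, the elongation factor that brings aminoacyl-tRNA to the ribosome, was at 843, 788 and 957 CPM in CTRL and 706, 809 and 691 in RbpjΔEC, with -0.23 ± 0.09 (SE). Eif3h, a subunit of the initiation factor eIF3, gave -0.23 ± 0.09. With a library left out, Eef1a1 ran from -0.30 (without RbpjΔEC 2) to -0.15 (without CTRL 3). Eif3h ran from -0.31 (without CTRL 2) to -0.14 (without CTRL 3). Their groups overlapped, and RbpjΔEC 2 was the highest RbpjΔEC library in both, as in the ribosomal protein sum.

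Genes that build ribosomes had medians near 0. Of 40 ribosome biogenesis genes, 1 was higher and 0 lower past the threshold, with a median of -0.03, which turned to 0.02 with library size alone. The gene that rose was Nop56, a core protein of box C/D snoRNPs, at 63.4, 78.4 and 67.5 CPM in CTRL and 89.6, 97.0 and 97.5 in RbpjΔEC. Its log2 fold change was 0.44 ± 0.09 (SE, adjusted p 0.0377 in edgeR's quasi-likelihood test). Gnl3l, a nucleolar GTPase, gave -0.22 ± 0.07 and did not pass. Of 18 genes of RNA polymerase I and its factors, 1 was higher and 0 lower, with a median of 0.09. Taf1d, of the promoter factor SL1, was at 37.7, 47.7 and 40.4 CPM in CTRL and 59.6, 57.5 and 53.7 in RbpjΔEC, with 0.44 ± 0.09 (SE, adjusted p 0.0496 in edgeR's quasi-likelihood test). Taf1c, also of SL1, gave 0.37 ± 0.12 and did not pass. The call of Nop56 was lost in 4 of the 6 fits that left out a library, without CTRL 1, CTRL 3, RbpjΔEC 1 or RbpjΔEC 2, with adjusted p up to 0.160, and that of Taf1d in the same 4, up to 0.212, and with RLE scaling (0.0507).

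Of 12 noncoding snoRNA host genes, 10 had a log2 fold change above 0 and the median was 0.38. Tested genes that are not protein-coding and host no snoRNA leaned the same way, with 3288 of 4892 above 0 and a median of 0.19, and without adjustment 543 of these were higher and 55 lower. Of the 12 host genes, 1 was higher past the threshold in edgeR's quasi-likelihood test and 3 in DESeq2, without adjustment 5 were higher and 1 lower in the former, and over the fits that left out a library the count of higher calls ran from 0 to 4, highest without CTRL 2. Snhg12 was at 14.5, 18.9 and 16.8 CPM in CTRL and 24.3, 24.3 and 24.6 in RbpjΔEC, with 0.54 ± 0.11 (SE, adjusted p 0.0402 in edgeR's quasi-likelihood test). Its call was lost in the same 4 fits that left out a library as for Nop56. Gas5, whose RNA is itself a TOP transcript, was at 59.9, 80.9 and 78.7 CPM in CTRL and 108, 102 and 97.1 in RbpjΔEC, with 0.48 ± 0.11 (SE, adjusted p 0.0600 in edgeR's quasi-likelihood test, and 0.00440 in DESeq2). CTRL 1 was the lowest library for each of these 4 genes. By annotation, Nop56 holds 5 snoRNA genes, Taf1d 8, Snhg12 5 and Gas5 10.

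Of 20 mTOR, Myc and TOP regulators above the pathway, 0 passed edgeR's quasi-likelihood test and 0 DESeq2, each with 1 higher and 1 lower unadjusted. In edgeR 1 was higher without RbpjΔEC 3, and 1, Myc, with no low-count filter. The median was -0.01, or 0.03 with library size alone. Eif4ebp2, an inhibitor of the cap-binding factor eIF4E, was at 157, 150 and 155 CPM in CTRL and 126, 133 and 129 in RbpjΔEC, with -0.25 ± 0.06 (SE, adjusted p 0.0820 in the same test). Myc was at 3.62, 2.89 and 2.51 CPM in CTRL and 4.53, 6.58 and 3.77 in RbpjΔEC, with 0.72 ± 0.25 (SE, adjusted p 0.162 in edgeR's quasi-likelihood test, and 0.0459 with no low-count filter). Both had groups without overlap.

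**Figure D5:**
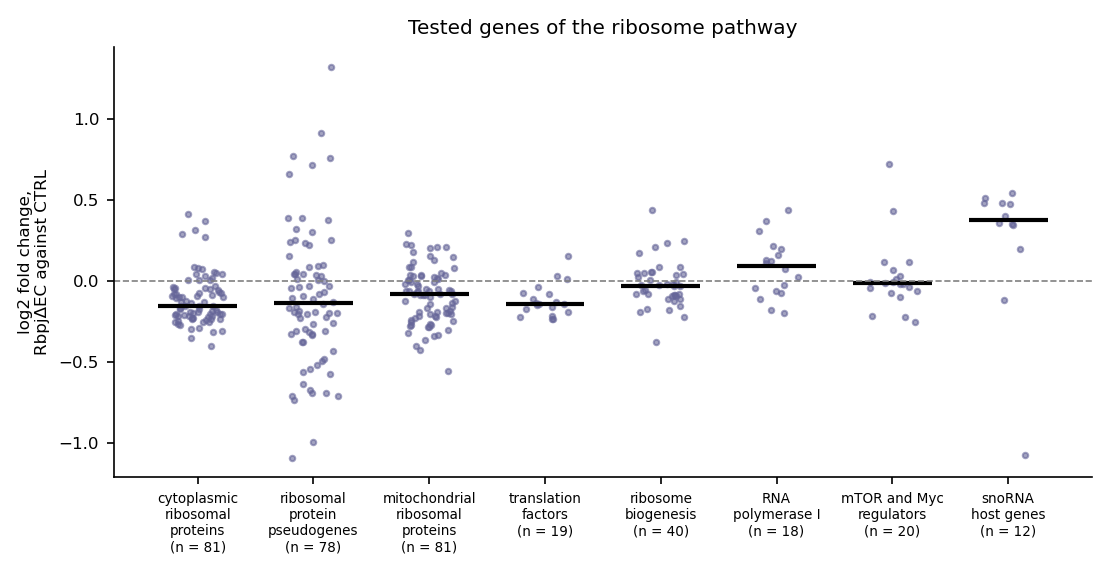
Fitted log2 fold change of RbpjΔEC against CTRL for the tested genes of 8 lists of the ribosome pathway, 1 point for each gene, with medians as bars. The medians were -0.15 for cytoplasmic ribosomal proteins, -0.14 for translation factors and for ribosomal protein pseudogenes, and 0.38 for snoRNA host genes.

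The ribosomal proteins of mitochondria and the pseudogenes of the family had 0 calls in either direction, in edgeR's quasi-likelihood test as in DESeq2, and with no low-count filter 1 mitochondrial one was higher in edgeR. The mitochondrial names kept those marked -ps, and 78 of the 84 have a coding transcript. Of the 81 tested, 56 had a log2 fold change below 0, with a median of -0.08. Without adjustment 1 was higher and 6 lower in edgeR (1 and 5 of 83 in DESeq2). With a library left out, the median ran from -0.13 (without RbpjΔEC 2) to -0.05 (without CTRL 3). The unadjusted lower count ran from 3 (without CTRL 3 or RbpjΔEC 3) to 13 (without CTRL 2). The sum of the 84 was 1047 ± 37.5 CPM in CTRL and 1015 ± 24.3 in RbpjΔEC (SD, n = 3 each), with overlap. Mrpl17 gave 0.30 ± 0.08 and Mrps14 -0.34 ± 0.11 (SE), both without overlap. The 319 named pseudogenes together had 84.6 ± 7.73 CPM in CTRL and 76.4 ± 10.4 in RbpjΔEC, a log2 ratio of -0.15, equal to that of the members. Of the 78 tested in edgeR, 1 was higher and 1 lower unadjusted, with a median of -0.14, or -0.02 without CTRL 3. DESeq2 tested 276 of them, also with 1 higher and 1 lower unadjusted, and a median of -0.31. Adding their counts to the members left the log2 ratio of the sum at -0.15.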

How the data were processed

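RNA from sorted kidney ECs was sequenced by the authors as stranded total RNA in paired reads, trimmed with Trim Galore 0.6.4, aligned to GRCm38.p6 with STAR 2.6.1d and counted per gene with featureCounts (Subread 1.6.4). The libraries shared a sequencing run. The deposited values are whole-number read counts, not normalized. The strand setting and the treatment of multi-mapping reads are not given in the sources used here.

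From these counts, edgeR 4.0.16 in R 4.3.3 was used for TMM factors, CPM and the test of each gene (filterByExpr, glmQLFit with robust estimation, glmQLFTest), with Benjamini-Hochberg adjustment over 18438 genes and a threshold of 0.05. A prior count of 2 was used for log2 CPM. Each SE is the log2 fold change over the root of its F statistic. DESeq2 1.42.0 was an alternative, beside scaling, filter, replicate block and each library left out. The fit was tested on simulated data with larger changes than those of the members, which does not cover changes of their size. Lengths, shared windows, snoRNAs and overlaps came from GENCODE M21 on GRCm38, an earlier release than the one the counts used. A floor of 3 counts was 0.0634 to 0.0749 CPM, which covers counting error only. Named genes were the 5 largest positive and negative fold changes at 5 CPM or more, the 5 highest and lowest per length, genes of set roles, and the 2 smallest p of each other list. The results of 2 genes are not reported here. The members and lists were chosen with earlier results of these data known.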

Additional observations from a re-analysis of the deposited data

How the results depend on the processing

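The count of 0 members called higher and 0 lower held in the fits with RLE scaling, library size alone, a minimum of 10 counts in 3 libraries and DESeq2. With no low-count filter, 1 member was higher (Rpl13a) and 2 lower (Rpl23a and Rpl8), in a fit that called 1436 genes in place of 209. DESeq2 called 584 of all genes, and the members lower at an unadjusted p under 0.05 numbered 5 with library size alone, 9 with the replicate block, 16 in DESeq2 and 31 with no low-count filter, in place of 13. The members' median log2 fold change was -0.16 to -0.11 over the settings of scaling, filter, test and block, -0.13 over protein-coding members alone, and -0.21 to -0.05 with a library left out. Minus the median of all genes it was -0.16, but -0.031 with no low-count filter and -0.030 in DESeq2, fits that include genes of few counts, and -0.21 to -0.056 with a library left out. Leaving out a library gave 0 to 1 members called lower and 0 called higher (21 to 700 of all genes). The log2 ratio of the sum was -0.15 to -0.10 over other totals, the last total, without mitochondrially encoded genes and nuclear noncoding RNAs, being chosen after seeing the data, and -0.23 to -0.06 with a library left out. With a library left out, the log2 fold change of Rpl39 ran from -0.049 to 0.13 (lowest without RbpjΔEC 2), that of Rpl3 from -0.046 to 0.12 (below 0 without CTRL 2 or RbpjΔEC 2), that of Rps27 from -0.15 to 0.051 (above 0 without CTRL 3), that of Rps19 from -0.15 to 0.081 (above 0 without CTRL 3 or RbpjΔEC 3) and that of Rpl36al from -0.035 to 0.094 (below 0 without CTRL 2 or RbpjΔEC 1). The cause was not tested. Libraries with the same replicate number did not deviate together (r of 0.0196, 0.0121 and 0.00553). These are deviations from means of 3 libraries, so they cannot show whether the numbers pair the mice. With the replicate number as a block, 0 members were called, the median was -0.15 and 344 of all genes were called. The block also gave 2 higher and 1 lower calls among tubule markers, 1 and 1 among podocyte markers and 2 lower among endothelial markers, and 4 lower mural and 2 lower stroma markers in place of 3 and 1. With 3 mice in each group, single differences of the size seen here are estimated with a median SE of 0.11 on the log2 scale.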

Other observations

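Among all tested genes outside the ribosomal proteins, the median log2 fold change of snoRNA hosts differed with the gene type. It was -0.02 over 212 protein-coding hosts, with 4 higher and 1 lower past the threshold of edgeR's quasi-likelihood test, and 0.40 over 34 hosts that are not protein-coding, with 1 higher and 0 lower. Tested genes that host none had a median of -0.02 where protein-coding (13219 genes) and 0.19 where not (4892 genes). These are counts and medians without a test of the difference.

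Of the ribosomal protein pseudogenes, Rps13-ps4 (0.311 ± 0.127 CPM in CTRL and 0.787 ± 0.340 in RbpjΔEC, SD, n = 3 each) and Rpl19-ps11 (3.23 ± 0.398 and 2.17 ± 0.137) had the smallest p, with log2 fold changes of 1.32 ± 0.51 and -0.57 ± 0.22 (SE). Rps13-ps4 lies within Taf1c on the same strand, at chr8:119602170-119602625. Neither passed the test.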
